A study of Mus musculus with 8 samples.

Results

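Acetylation of histone H3 at lysine 27 (H3K27ac) was examined in windows named after the mouse genes Egfr, Erbb2 and Erbb3, which encode receptors of the EGF family. All peaks that overlapped 3 fixed stretches of build mm9 were taken. These windows were chromosome 11 from 16600000 to 16850000 for Egfr, chromosome 11 from 98250000 to 98310000 for Erbb2, and chromosome 10 from 127980000 to 128050000 for Erbb3. They held 138 of 195577 peaks, which fell into 23 of the 33920 regions formed by merging overlapping peaks of all libraries. The cells were 266-6, a mouse pancreatic acinar line, and chromatin was immunoprecipitated with an H3K27ac antibody. All groups received siRNA at 25 nM for 48 h, a night without serum, and then EGF or vehicle for 8 h. There were 4 groups of 2 libraries. The Arid1a knockdown with EGF group received siRNA against Arid1a, which encodes a DNA-binding subunit of SWI/SNF remodellers, and 40 ng/ml EGF. The Arid1a knockdown group received the same siRNA and the vehicle, 0.1% BSA. The EGF group received a non-targeting siRNA and 40 ng/ml EGF, and the control group the non-targeting siRNA and vehicle. The words knockdown and intact refer to the siRNA a culture received. Arid1a levels were not analysed here, and a match of the siRNAs to the mouse sequence is not stated. All groups come from 1 cell line, nothing says that duplicates came from separate cultures, and p-values measure the spread between these libraries, which may be technical. Acinar identity was not checked against marker genes, because a gene annotation of mm9 was not used here.

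Egfr is a receptor tyrosine kinase that EGF binds directly. Erbb2 has no known ligand of its own and acts as a partner in receptor pairs, and Erbb3 binds neuregulins, has a weak kinase and recruits phosphatidylinositol 3-kinase. Ligand binding makes the receptors pair and phosphorylate each other, which starts ERK and AKT signalling, and in the pancreas EGF receptor signalling is known for its part in the conversion of acinar cells to duct-like cells. H3K27ac marks active promoters and enhancers. The windows may hold marks of neighbouring genes. In the order of genes of RefSeq assembly GRCm38.p6, the nearest protein-coding genes are Sec61g and Fbxo48 around Egfr, Pgap3 and Mien1 around Erbb2, and Pa2g4 and Rps26 around Erbb3. No peak is assigned to a gene here, since positions in mm9 were not matched to that assembly. Where each receptor gene lies within its window was not determined, so peaks and gaps are not placed relative to the genes.

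The promoters of the receptors are shown as sequence context for the genes that name the windows. The RefSeq promoter table of build GRCm38.p6, with 250 bases before and 50 after each start, matched 2 of the 3 genes, Egfr and Erbb2. These coordinates belong to GRCm38.p6 and are not comparable with the mm9 positions of the peaks. The Egfr sequence lies at chr11:16751953-16752252 and the Erbb2 sequence at chr11:98412234-98412533, both on the plus strand. Capitals mark TCCTCC on either strand, that is TCCTCC or GGAGGA.
Egfr: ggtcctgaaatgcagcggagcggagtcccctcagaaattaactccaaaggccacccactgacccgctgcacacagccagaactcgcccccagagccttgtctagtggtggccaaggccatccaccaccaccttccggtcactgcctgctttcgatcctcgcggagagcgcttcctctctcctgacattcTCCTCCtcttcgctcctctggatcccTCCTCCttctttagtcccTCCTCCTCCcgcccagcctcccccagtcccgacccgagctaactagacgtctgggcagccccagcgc
Erbb2: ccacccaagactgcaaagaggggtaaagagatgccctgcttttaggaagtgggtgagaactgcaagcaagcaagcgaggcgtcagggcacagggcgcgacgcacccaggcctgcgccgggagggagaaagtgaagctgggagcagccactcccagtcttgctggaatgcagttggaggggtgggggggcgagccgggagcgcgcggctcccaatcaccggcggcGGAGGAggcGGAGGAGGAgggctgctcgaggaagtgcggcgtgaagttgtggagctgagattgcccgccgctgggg
The Egfr promoter was 62.3% G or C and held TCCTCC 4 times, overlapping matches counted. The Erbb2 promoter was 66% G or C and held it 3 times. TCCTCC occurred at least once in 34.5% of the 32851 RefSeq promoters and at least 3 times in 3.05%, and the motif was chosen after the sequences were seen. The GC box GGGCGG, searched on both strands, had 1 match in Egfr, which shared 1 base with a TCCTCC match, and 0 in Erbb2, and 35.7% of promoters held it. Neither sequence held TATAAA, present in 13.6% of promoters, or the AP-1 motif TGANTCA, present in 7.81%, on either strand.

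Each library came as 1 list of 22030 to 28281 peaks, and these covered 33.9 to 48.7 Mb. The first control library had 22167 peaks over 34.3 Mb, close to EGF-treated libraries and below the 28281 peaks over 47.2 Mb of the second. Read depth is unknown, and longer lists and wider peaks can come from deeper libraries, so no counting interval is given. Covered sequence also moved with EGF, at 33.9 to 36.8 Mb in the 4 EGF-treated libraries and 34.3 to 48.7 Mb in the 4 vehicle libraries, and its part in the EGF differences below was not tested beyond the values per Mb given for the windows. Fold enrichment is the authors' value for each peak over the background of their peak caller.

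**Figure D1:**
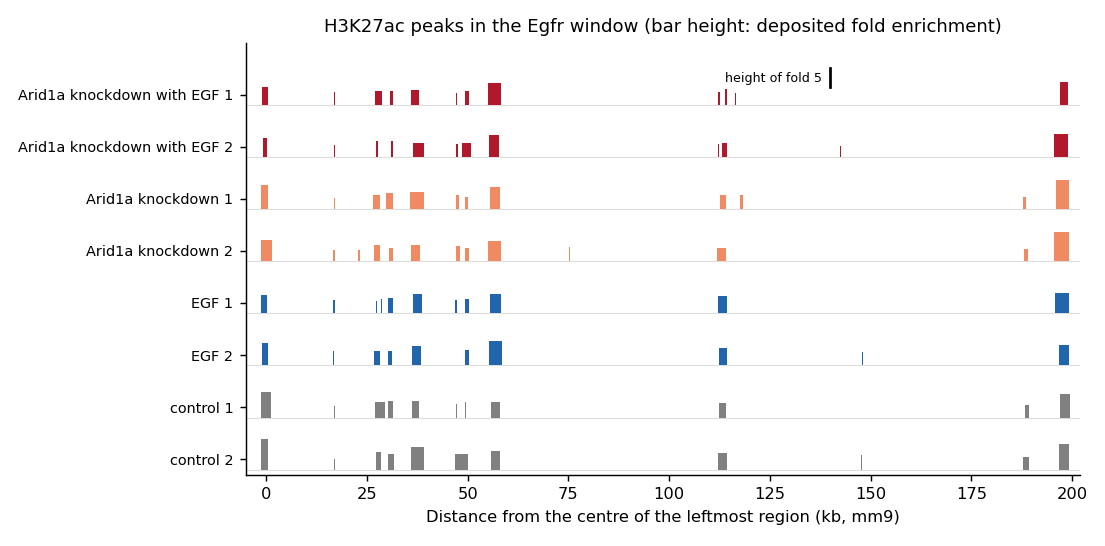
Peaks in the Egfr window, 1 row per library, against distance in kb from the centre of the leftmost region (mm9); bar width is peak width and bar height the deposited fold enrichment, on the scale of the marked bar. The peaks near 189 kb appear in the 4 vehicle libraries and in 0 of the 4 EGF-treated ones, while 7 of the 8 regions between 0 and 56.8 kb have a peak in all 8 libraries.

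The Egfr window spans 250 kb, against 60 kb for Erbb2 and 70 kb for Erbb3, and most of its acetylated regions recurred in all libraries. It held 16 regions, numbered 1 to 16 from left to right, with a peak in all 8 libraries at 9 of them, in 2 or 4 libraries at 2, and in 1 library at 5. Of the 9 shared regions, 7 lay within 56.8 kb of each other at the left, from region 1 to region 8 by the distance between centres. Region 10 followed at 113 kb and region 16 at 197 kb, and between regions 8 and 10 a stretch of 53.3 kb held 1 peak of 1 library. The shared regions differed in strength. By mean fold region 16 was the strongest, at percentile 66.4 of the 16607 regions with a peak in all 8 libraries, and region 1 stood at percentile 57.9. Region 8 stood at percentile 48.2, region 6 at percentile 28.4, and regions 4, 5, 7 and 10 between percentiles 8.01 and 12.6. Region 2, from 16669657 to 16670288, was among the narrowest of all shared regions, with a mean covered length of 318 bp at percentile 0.0723.

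EGF-treated cells lacked a peak at 1 place in the Egfr window where all vehicle-treated cells had one. Region 15, from 16840949 to 16842428, had no peak in either Arid1a knockdown with EGF library, against 591 and 1012 bp in the Arid1a knockdown libraries. It had no peak in either EGF library, against 1035 and 1480 bp in the control libraries. The groups therefore did not overlap in either Arid1a state. Of all 33920 regions 1.61% had a peak in none of the 4 EGF-treated and all 4 vehicle libraries, 4.26% in neither EGF and both control libraries, and 8.40% in neither Arid1a knockdown with EGF and both Arid1a knockdown libraries. Covered length was tested for every region with a peak in at least 2 libraries by limma on log2(covered bp + 200), with Benjamini-Hochberg adjustment and a threshold of 0.05. Over both Arid1a states region 15 fell by 2.57 ± 0.26 on this scale (SE, limma adjusted p = 0.00640), where 11.2% of the 28146 regions tested were called lower and 1.79% higher. It fell by 2.85 ± 0.37 in EGF cells against control (SE, limma adjusted p = 0.0240, with 2.90% of regions called lower) and by 2.29 ± 0.37 in Arid1a knockdown with EGF against Arid1a knockdown (SE, limma adjusted p = 0.0261, with 6.00% called lower). The difference between these effects, 0.56 ± 0.53, did not pass the test (SE, limma adjusted p = 0.865). Region 15 met the requirement of a peak in at least 2 libraries through vehicle libraries alone, so a lower value with EGF was set by how it entered the test. These p-values therefore describe the region and are no independent support for the difference.

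The peaks behind that difference were weak ones. In the 4 vehicle libraries their fold was 3.27 to 3.40 and their −log10 q 1.2 to 1.66, beside a minimum of 1.002 to 1.051 in the 8 lists, and their scores stood at percentiles 2.03 to 13.02 of their own lists. A region without a peak is not shown to lack acetylation. On lists cut to equal length and on peaks at or above the pooled median score the region no longer had peaks in 2 libraries and was not tested. The size depends on the pseudocount, with differences of -4.37 at 50 bp and -1.003 at 1000 bp. Without single libraries the mean difference ranged from -2.72 to -2.42. These runs are no support for it, since the region entered the test through vehicle libraries alone. The calls within 1 Arid1a state did not all hold. For EGF against control the limma adjusted p became 0.120 or 0.0938 when the first or second EGF library was left out, 0.0513 and 0.0512 without the first and second Arid1a knockdown library, and 0.0503 without the first Arid1a knockdown with EGF library. For Arid1a knockdown with EGF against Arid1a knockdown the limma adjusted p became 0.112 or 0.0937 when the first or second Arid1a knockdown with EGF library was left out. It became 0.102 or 0.151 when the first or second Arid1a knockdown library was left out, and 0.0555 or 0.0550 when the first or second EGF library was.

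Region 1 of the Egfr window, the leftmost and strongest of the shared cluster, was narrower in every EGF-treated library than in any vehicle library. It lay on chromosome 11 from 16651748 to 16654539. Its peak covered 1346 and 1186 bp in the Arid1a knockdown with EGF libraries, against 1731 and 2694 bp in the Arid1a knockdown libraries. It covered 1525 and 1494 bp in the EGF libraries, against 2559 and 1736 bp in the control libraries. All 4 EGF-treated libraries were thus below all 4 vehicle libraries, a pattern without overlap that 14.0% of all regions tested showed in this direction and 2.33% in the other. The mean was 1387.75 ± 156 bp with EGF and 2180 ± 519 bp with vehicle (SD, n = 4 each), a log2 difference of -0.56 ± 0.17 that did not pass the threshold (SE, limma adjusted p = 0.0815). The vehicle libraries with the widest peaks, the first control and the second Arid1a knockdown library, differed at the right edge. Their peaks ended at 16654376 and 16654539, and those of the other 6 libraries between 16653272 and 16653600. Fold was 4.81 and 5.20 with both treatments and 6.60 and 5.81 with knockdown alone, and it was 4.93 and 6.09 with EGF alone and 6.73 and 8.19 in control cells, so that EGF-treated and vehicle libraries overlapped in fold.

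The other Egfr regions overlapped in covered length between all 4 EGF-treated and all 4 vehicle libraries, and between all 4 knockdown and all 4 intact ones. Region 5, from 16682820 to 16684803, covered 628 and 289 bp in Arid1a knockdown with EGF, against 1869 and 1096 bp in Arid1a knockdown. It covered 1277 and 1029 bp in EGF cells, against 1210 and 1570 bp in control cells. The mean EGF difference was -0.80 ± 0.25 (SE, limma adjusted p = 0.0825), and the lowest values stood in the group with both treatments. Region 8, from 16708215 to 16711677, had a mean EGF difference above 0, and the other 10 of the 11 Egfr regions tested were below 0 without normalization between libraries, of which region 16 was at 0.18 after quantile normalization. It covered 3120 and 2633 bp in Arid1a knockdown with EGF against 2633 and 3191 bp in Arid1a knockdown. In EGF cells it covered 2746 and 3151 bp, against 2174 and 2325 bp in control cells, so that these 2 pairs of libraries did not overlap while the knockdown pairs did. Its mean difference was 0.17 ± 0.09 (SE, limma adjusted p = 0.259). Region 2 had the higher fold with EGF, at 3.24 to 3.902 in the 4 EGF-treated and 2.97 to 3.05 in the 4 vehicle libraries. Fold was higher without overlap in 6.11% of shared regions and lower in 17.5%.

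Region 16 was the widest Egfr region by mean covered length, but it crossed the window's right border, with 1444 of its 4052 bp inside. It lay from 16848557 to 16852608, and in 6 of the 8 libraries the peak reached into the window. It covered 2207 and 3508 bp in Arid1a knockdown with EGF against 3196 and 3703 bp in Arid1a knockdown, and 3367 and 2443 bp in EGF cells against 2378 and 2495 bp in control cells. The groups overlapped and the mean EGF difference was -0.03 ± 0.17 (SE, limma adjusted p = 0.911), with the sign turned when any of 3 single libraries was left out. Its fold was 5.41 to 6.24 in EGF-treated and 6.26 to 7.84 in vehicle libraries, a pattern without overlap that 17.5% of shared regions showed. The 5 regions found in 1 library (3, 9, 11, 12 and 13) were 217 to 759 bp wide, and region 14, with peaks of 390 bp in the second control library and 205 bp in the second EGF library, had the shortest mean covered length of those tested.

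**Figure D2:**
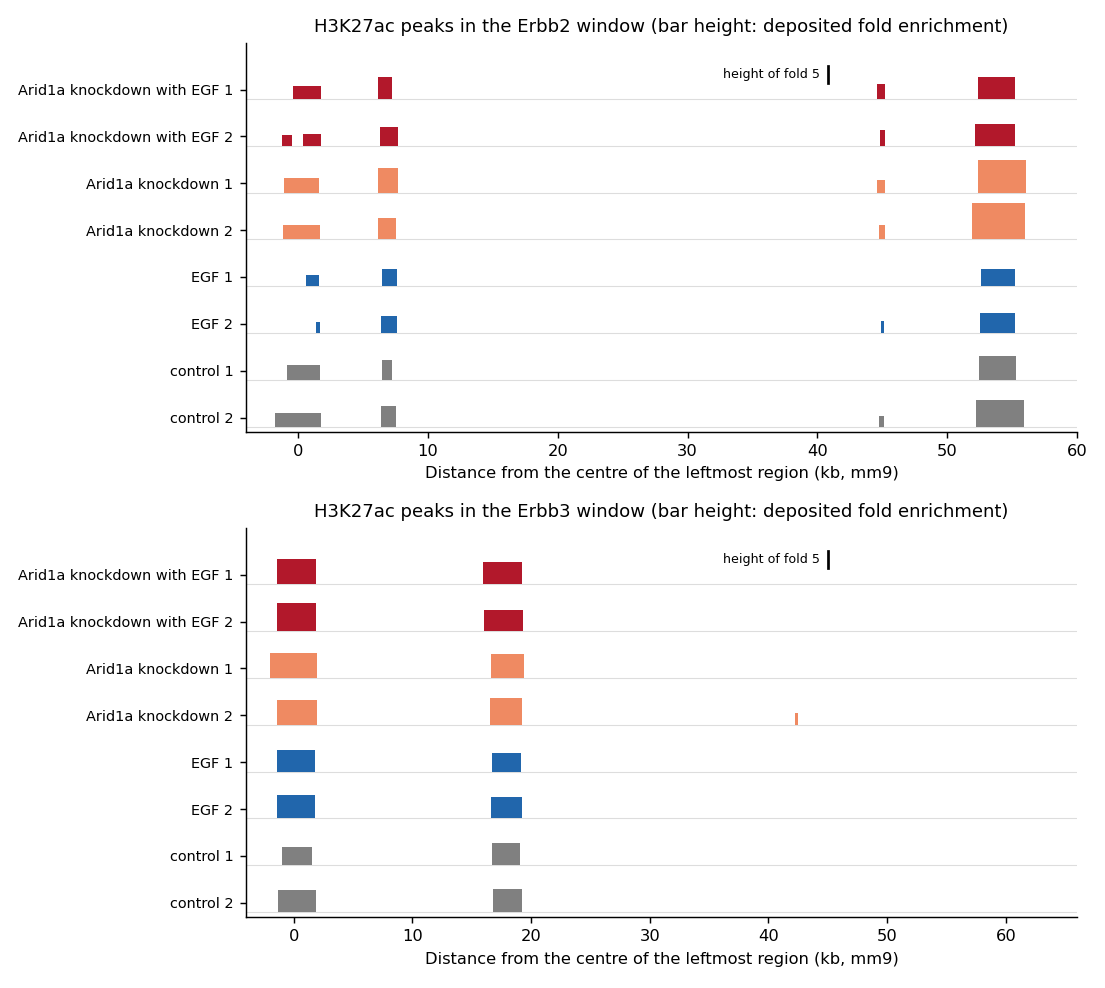
Peaks in the Erbb2 and Erbb3 windows, 1 row per library, against distance in kb from the centre of each window's leftmost region (mm9); bar width is peak width and bar height the deposited fold enrichment. The Erbb2 window shows a gap of 36.9 kb between regions 2 and 3, and the Erbb3 window shows both shared regions at its left.

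The Erbb2 window held 4 regions, all towards its ends. Peaks of all 8 libraries made up 3 of them, and peaks of 6 libraries the other. No library had a peak in the 36.9 kb between region 2, which ends at 98262824, and region 3, which starts at 98299681. Region 4, from 98306972 to 98311149, was the widest and strongest, at percentile 80.5 by mean fold among regions shared by all libraries. It crossed the window's right border at 98310000, with the peak of every library ending beyond it, and its lengths here are those of whole peaks. It covered 2854 and 3124 bp in Arid1a knockdown with EGF against 3680 and 4090 bp in Arid1a knockdown, and 2641 and 2651 bp in EGF cells against 2818 and 3660 bp in control cells. Its fold was 6.49 and 6.38 in Arid1a knockdown with EGF against 9.71 and 10.8 in Arid1a knockdown. In EGF cells the fold was 5.28 and 6.08, against 7.05 and 8.17 in control cells. All EGF-treated libraries were below all vehicle libraries in fold, as in 17.5% of the 16607 regions with a peak in all libraries. Their covered lengths overlapped through the first control library. The mean EGF difference in covered length was -0.31 ± 0.09 (SE, limma adjusted p = 0.0785) with all libraries. Without single libraries it ranged from -0.40, without the first control library, to -0.22. Over the other processing settings it ranged from -0.32 to -0.099 (limma adjusted p = 0.0598 to 0.348).

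Region 1 of the Erbb2 window showed the largest spread between groups there. It lay from 98253319 to 98256883 and covered 2133 and 2116 bp in Arid1a knockdown with EGF, against 2692 and 2861 bp in Arid1a knockdown. In EGF cells it covered 1078 and 286 bp, against 2512 and 3565 bp in control cells. Each EGF-treated library was below each vehicle library, as in 14.0% of all regions tested, and the libraries with EGF alone were the lowest of all. Fold also did not overlap between EGF-treated and vehicle libraries, at 3.34 to 3.78 in EGF-treated and 4.24 to 4.44 in vehicle libraries. That pattern in fold held for 17.5% of regions with a peak in all libraries. The mean EGF difference was -1.19 ± 0.31 (SE, limma adjusted p = 0.0560), with -2.02 ± 0.43 in Arid1a-intact cells (SE, limma adjusted p = 0.0657) and -0.36 ± 0.43 in knockdown cells (SE, limma adjusted p = 0.637). The difference between these effects, 1.66 ± 0.61, did not pass the test (SE, limma adjusted p = 0.477). Without single libraries the mean effect ranged from -1.54, without the first EGF library, to -0.84, without the second. In the second Arid1a knockdown with EGF library the region was made up of 2 peaks of 728 and 1388 bp.

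All 4 regions of the Erbb2 window had longer mean covered lengths with knockdown, but no difference passed the test. At region 1 the mean knockdown difference was 0.73 ± 0.31 (SE, limma adjusted p = 0.291). At region 4 it was 0.21 ± 0.09 (SE, limma adjusted p = 0.316). The median over all regions tested was 0.11. Region 2, from 98261220 to 98262824, covered 1053 and 1384 bp in Arid1a knockdown with EGF against 1146 and 1210 bp in EGF cells, and 1585 and 1445 bp in Arid1a knockdown against 769 and 1160 bp in control cells. Its mean knockdown difference was 0.31 ± 0.15 (SE, limma adjusted p = 0.369). Region 3, from 98299681 to 98300345, had a peak in all 4 knockdown libraries and in 2 of the 4 intact libraries. It covered 612 and 391 bp in Arid1a knockdown with EGF, against no peak in the first EGF library and 257 bp in the second. In Arid1a knockdown it covered 592 and 472 bp, against no peak in the first control library and 401 bp in the second. The knockdown and intact libraries overlapped, and the mean difference was 1.13 ± 0.47 (SE, limma adjusted p = 0.285).

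The Erbb3 window had the simplest pattern, with 2 strong regions in every library and 1 peak of 200 bp in the second Arid1a knockdown library, from 128027290 to 128027489. To the right of region 2 the remaining 45.6 kb of the window held no other peak. Both shared regions were wider in every knockdown library than in any intact library, a pattern that 3.98% of regions tested showed in this direction and 0.995% in the other. Region 1, from 127983084 to 127986987, covered 3279 and 3316 bp in Arid1a knockdown with EGF against 3190 and 3198 bp in EGF cells. In Arid1a knockdown it covered 3904 and 3359 bp, against 2514 and 3196 bp in control cells. The groups were closest with EGF, at means of 3297.5 bp with knockdown and 3194 bp without it, and the mean knockdown difference was 0.19 ± 0.09 (SE, limma adjusted p = 0.352). Its fold was 7.35 to 8.37 in knockdown and 5.46 to 6.86 in intact libraries, again without overlap, as in 8.70% of shared regions in this direction and 0.891% in the other.

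Region 2 of the Erbb3 window, from 128000994 to 128004446, covered 3265 and 3278 bp in Arid1a knockdown with EGF, against 2478 and 2589 bp in EGF cells. In Arid1a knockdown it covered 2762 and 2741 bp, against 2382 and 2468 bp in control cells. Duplicates lay close together and the group with both treatments was the highest. Its 2 peaks started at 128000994 and 128001042, and those of the other 6 libraries between 128001566 and 128001832, so that both peaks began farther left than in the other groups. The mean knockdown difference was 0.26 ± 0.05 (SE, limma adjusted p = 0.0749), against 0.35 ± 0.07 under EGF (SE, limma adjusted p = 0.115) and 0.17 ± 0.07 without it (SE, limma adjusted p = 0.393). Without single libraries the mean knockdown effect ranged from 0.24 to 0.27. After quantile normalization it was 0.15 (limma adjusted p = 0.368). On peaks at or above the pooled median score and on lists of equal length it stayed at 0.26 and passed (limma adjusted p = 0.0110 and 0.0466). Those settings called 1079 of 14819 and 887 of 24966 regions. In the other settings with all libraries it did not pass. Fold did not follow the width. It was 6.69 and 6.16 in Arid1a knockdown with EGF and 7.21 and 7.88 in Arid1a knockdown. In EGF cells it was 5.44 and 6.34, and in control cells 6.79 and 6.86. All EGF-treated libraries were thus below all vehicle libraries in fold, as in 17.5% of regions with a peak in all libraries.

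**Figure D3:**
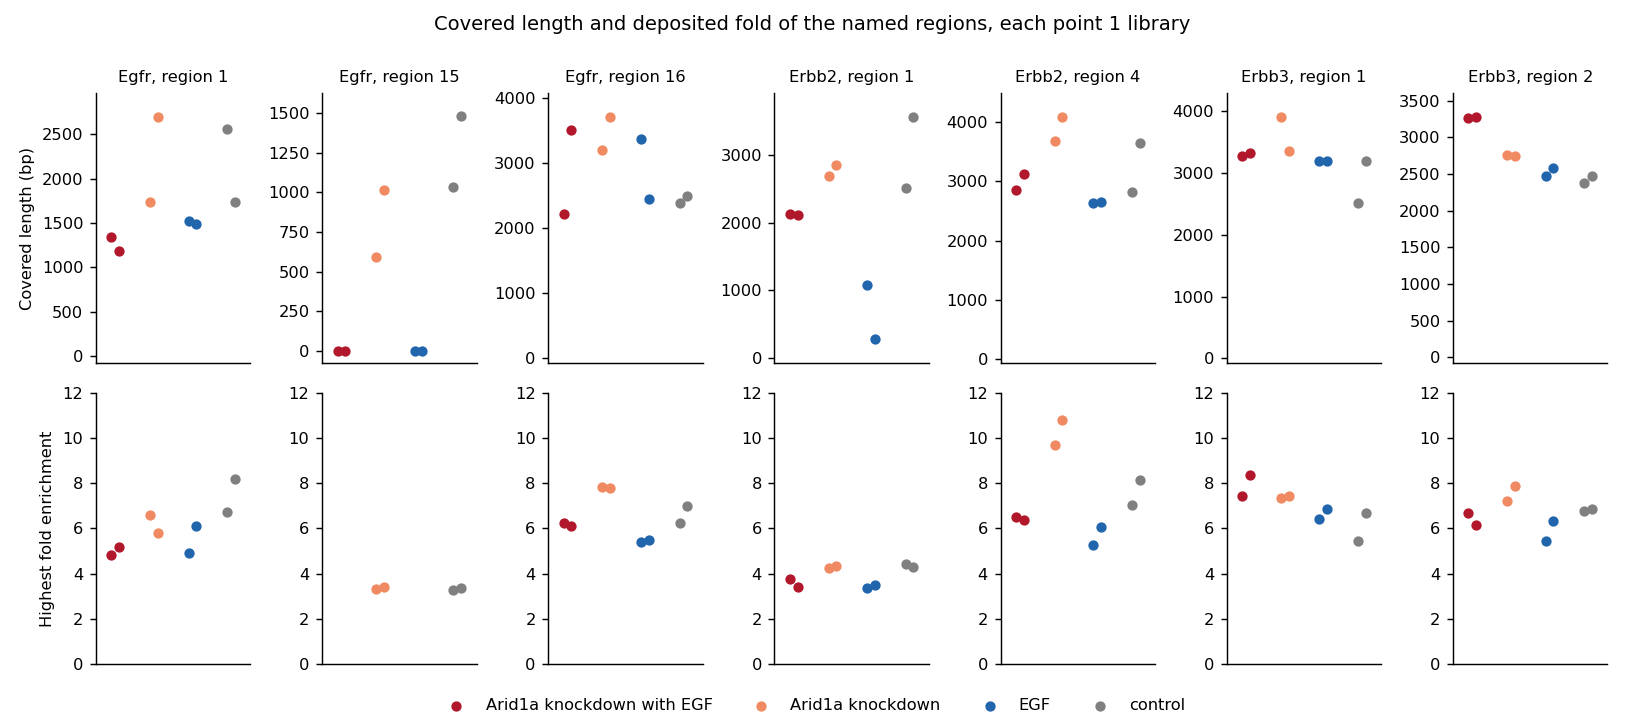
Covered length in bp (top) and highest deposited fold enrichment (bottom) of 7 regions in the 4 groups, each point 1 library, with regions numbered from left to right in their window. Egfr region 15 has covered length 0 and no fold in the EGF-treated libraries. In covered length Egfr region 1 and Erbb2 region 1 are lower in all EGF-treated libraries, and Erbb3 regions 1 and 2 are higher in all knockdown libraries. In fold Egfr region 1 and Erbb3 region 2 overlap in these comparisons.

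Summed over each window, no difference in covered length passed the test after adjustment. The Egfr window was covered over 12667.5 ± 1860 bp in Arid1a knockdown with EGF, 17867 ± 651 bp in Arid1a knockdown, 13189.5 ± 74.2 bp in EGF and 15832.5 ± 2870 bp in control cells (SD, n = 2 each). EGF-treated libraries averaged 12928.5 ± 1110 bp and vehicle libraries 16849.8 ± 2070 bp (SD, n = 4 each). An exact permutation test, two-sided as in the other window tests, gave p = 0.0571, or 0.171 adjusted over the 6 of them. The ranges overlapped, since the second Arid1a knockdown with EGF library had 13981 bp and the first control library 13800 bp. Set against all sequence covered in each library, the Egfr window took 332 to 388 bp per Mb with EGF and 376 to 402 bp per Mb with vehicle.

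The Erbb2 window was covered over 6511.5 ± 251 bp in Arid1a knockdown with EGF, 7603.5 ± 288 bp in Arid1a knockdown, 4325.5 ± 315 bp in EGF and 6750 ± 1480 bp in control cells (SD, n = 2 each). Both EGF libraries, at 4548 and 4103 bp, were below all others, and the control libraries, at 5700 and 7800 bp, spanned most of the range of the knockdown groups. The mean covered length was 5418.5 ± 1280 bp with EGF and 7176.75 ± 1000 bp with vehicle (SD, n = 4 each, exact permutation p = 0.0857, adjusted 0.171). Per Mb covered in the library the adjusted p was 0.543 by exact permutation, and the direction differed between Arid1a states. The window took 185 and 182 bp per Mb in Arid1a knockdown with EGF against 160 and 160 bp per Mb in Arid1a knockdown, and 134 and 116 bp per Mb in EGF cells against 166 and 165 bp per Mb in control cells. Covered length averaged 7057.5 ± 668 bp with knockdown and 5537.75 ± 1650 bp with Arid1a intact (SD, n = 4 each, exact permutation p = 0.143, adjusted 0.214).

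The Erbb3 window was covered over 6569 ± 35.4 bp in Arid1a knockdown with EGF, 6483 ± 259 bp in Arid1a knockdown, 5727.5 ± 84.1 bp in EGF and 5280 ± 543 bp in control cells (SD, n = 2 each). The 4 knockdown libraries, at 6300 to 6666 bp, lay above the 4 intact libraries, at 4896 to 5787 bp. The means were 6526 ± 159 bp and 5503.75 ± 409 bp (SD, n = 4 each), and the two-sided exact permutation p of 0.0286 is the smallest that 4 against 4 can give, or 0.171 after adjustment over the 6 window tests. Per Mb covered in the library the groups overlapped, at 129 to 191 bp with knockdown and 120 to 167 bp with Arid1a intact (exact permutation adjusted p = 0.543). With EGF the Erbb3 window averaged 6148.25 ± 489 bp against 5881.5 ± 777 bp with vehicle (SD, n = 4 each, exact permutation p = 0.543), and without the first control library this difference of 266.75 bp became -61.75 bp. Per Mb covered in the library it was 163 to 191 bp in the 4 EGF-treated and 120 to 144 bp in the 4 vehicle libraries. These values did not overlap (exact permutation adjusted p = 0.171). The divisor also moved with EGF, at 33.9 to 36.8 Mb with EGF and 34.3 to 48.7 Mb with vehicle. Its part in the separation was not tested. Per Mb covered, EGF-treated and vehicle libraries overlapped in the Egfr and Erbb2 windows (exact permutation adjusted p = 0.543 each). Windows elsewhere were not compared in this way. Knockdown and intact libraries of the Egfr window averaged 15267.2 ± 3210 bp and 14511 ± 2250 bp (SD, n = 4 each, exact permutation p = 0.743), a difference that became -263.67 bp without the second Arid1a knockdown library.

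**Figure D4:**
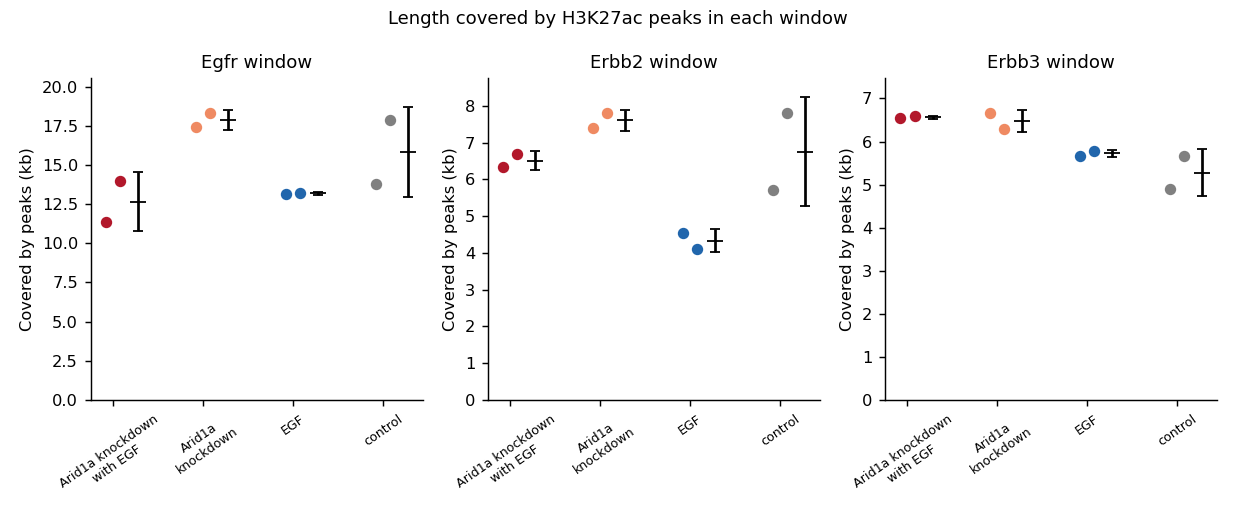
Length in kb covered by peaks in the Egfr, Erbb2 and Erbb3 windows for the 4 groups; points are libraries, and the bar beside them is the mean with its SD (n = 2). The Erbb3 panel shows the 4 knockdown libraries above the 4 intact ones, and the Erbb2 panel shows the EGF group lowest.

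Of the 23 regions 17 entered the test across all regions, 11 in the Egfr, 4 in the Erbb2 and 2 in the Erbb3 window, and the 6 with a peak in 1 library did not. For the mean EGF effect 1 of the 17 was called lower and 0 higher, beside 11.2% and 1.79% of all regions, and the 1 is region 15 of the Egfr window, which entered through the vehicle libraries. The median difference was -0.18 in the Egfr, -0.22 in the Erbb2 and 0.08 in the Erbb3 window, beside -0.25 over all regions tested. Of the 17 members 14 were below 0, as was the median of all regions, whose share below 0 was not counted. An unadjusted p under 0.05 by limma was found for 6 of 17, beside 34.0% of all regions. For the mean knockdown effect 0 of 17 were called by limma, beside 0.352% of all regions, with 2 of 17 at an unadjusted p under 0.05, beside 17.9% of all regions. The medians were 0.08, 0.52 and 0.22 in the Egfr, Erbb2 and Erbb3 windows, beside 0.11 over all regions. For Arid1a knockdown against control and for Arid1a knockdown with EGF against EGF 0 of 17 were called, beside 1.37% and 0.661% of all regions, with 3 and 4 of 17 at an unadjusted p under 0.05 by limma, beside 12.7% and 10.8% of all regions. For the difference of the EGF effect between Arid1a states 0 of 17 members and 0% of all regions were called, and 1 of 17 members had an unadjusted p under 0.05 by limma, beside 8.97% of all regions. For EGF against control, and for Arid1a knockdown with EGF against Arid1a knockdown, the call was the same region 15, 1 of 17 each, beside 2.90% and 6.00% of all regions called lower. In covered length 3 of the 17 regions were lower without overlap with EGF and 0 higher, beside 14.0% and 2.33% of all regions tested. With knockdown 0 were lower and 2 higher, beside 0.995% and 3.98%. In fold 4 of the 14 regions shared by all libraries were lower without overlap with EGF and 1 higher, beside 17.5% and 6.11% of all shared regions.

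**Figure D5:**
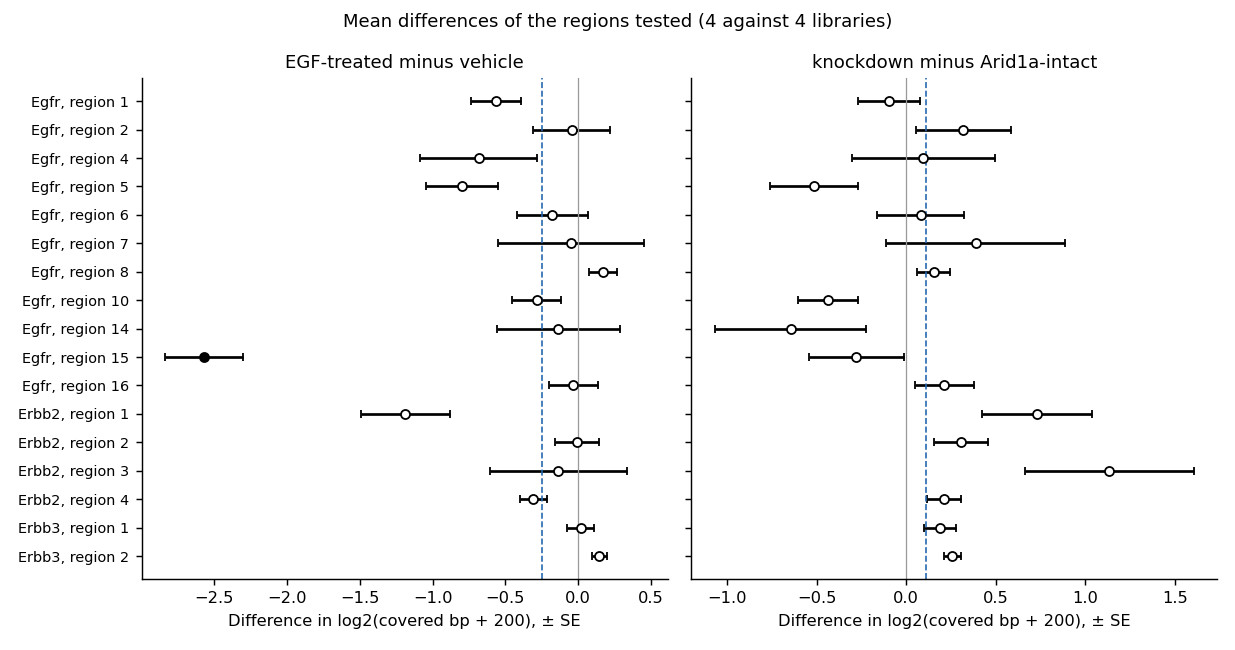
Mean EGF effect (left) and mean knockdown effect (right) on log2(covered bp + 200) for the 17 regions tested, with SE as bars and 4 against 4 libraries; the filled point passed the limma test, open points did not, and the dashed line is the median of all regions, at -0.25 on the left and 0.11 on the right. Egfr region 15 stands apart at -2.57 and entered the test through vehicle libraries alone.

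Regions elsewhere that followed the windows most closely over the 8 libraries are given as a description, with no test, since all regions are measured in the same 8 libraries, whose list lengths differ. For the Egfr window these were chromosome 9 from 122744634 to 122747246 and chromosome 8 from 63431317 to 63434495 (Pearson r = 0.996 and 0.989, n = 8 libraries), and 1211 of 28129 regions reached an r over 0.9. For the Erbb2 window they were chromosome 19 from 45421865 to 45423404 and chromosome 11 from 103827307 to 103828825 (r = 0.990 and 0.989, n = 8), with 655 regions over 0.9. For the Erbb3 window they were chromosome 17 from 80641080 to 80647129 and chromosome 10 from 74498465 to 74500657 (r = 0.994 and 0.978, n = 8), with 126 regions over 0.9.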

How the data were processed

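H3K27ac peak lists of 8 libraries, 2 in each of 4 groups taken from the sample titles, were analysed. The submitters' processing notes name the tools MACS2 (2.1.1.20160309.0), Bowtie2 (2.3.4.2), deepTools (3.0.2) and SAMtools and the build mm9, but not what each did. Each deposited list has 9 columns, was made from 1 library, and gives per peak a score, a fold enrichment ratio, a −log10 p and a −log10 q. For 195566 of 195577 peaks the deposited score equals 10 times −log10 q with its decimals dropped. The deposited fold is relative to the caller's background, and whether an input library was used is not given in the sources used here. Depth is unknown, and peak number and width can depend on it.

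Peaks of different lists that shared 1 bp or more were joined into regions with Python 3.11.15, pandas 2.3.3 and NumPy 2.4.6. Covered length was fitted with limma 3.58.1 in R 4.3.3 (4 group means, trended empirical Bayes) on log2(covered bp + 200) over the 28146 regions found in 2 or more libraries. P-values were adjusted over all of them. Window totals, with peaks cut at the window's borders, were compared by exact permutation in SciPy 1.17.1. Since 2 against 2 libraries cannot reach a two-sided p under 0.333, both states of the other factor were pooled. The steps were tested on simulated data. Figures used matplotlib 3.10.9.

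Named in full are the widest region of each window, regions called by limma, regions present in both libraries of one group and neither of another, and regions whose 4 and 4 libraries do not overlap in covered length. Further regions (Egfr 2, 5, 8 and 14, Erbb2 2 and 3) were added after their values were seen. Members and rules were chosen with earlier results of these data known. Genes of the EGF receptor pathway were not analysed here.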

Additional observations from a re-analysis of the deposited data

How the results depend on the processing

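Alternatives were score limits, lists of equal length, other pseudocounts, filters and merging, quantile normalization, a replicate block, other window definitions, and leaving out each library. Quantile normalization moved the median mean EGF difference of all regions from -0.25 to 0.04. With lists of equal length or peaks at or above the pooled median score, 0 regions of the 3 windows were called with EGF in either Arid1a state or over both, beside 3481 of 24966 and 1812 of 14819 regions in all for the mean EGF effect, and with a score limit Erbb3 region 2 gave 1 call for the mean knockdown effect and 1 under EGF. Lists of equal length gave the same 1 call for the mean knockdown effect. A pseudocount of 1000 bp and quantile normalization each gave 2 calls for EGF against control and 2 for the mean EGF effect. The added regions were Erbb2 region 1 in each case except the mean effect after quantile normalization, where it was Erbb3 region 2. Replicate numbers did not pair the libraries (correlations of same-numbered deviations -0.00929 to 0.0317 over 6 pairs of groups). With a replicate block 0 regions were called for EGF against control (limma adjusted p = 0.0552 for Egfr region 15). After quantile normalization Egfr region 15 had a difference of -1.28 in knockdown cells (limma adjusted p = 0.225), and the 1 call there was Erbb3 region 2, at 0.51 (limma adjusted p = 0.0499). Without single libraries the calls ranged from 0 to 1 in each Arid1a state for EGF, 1 to 2 for the mean EGF effect and 0 to 1 for the mean knockdown effect. The Egfr window's knockdown difference of 756.25 bp turned to -19.4 bp per Mb covered, and ranged from -263.67 to 2060.67 bp without single libraries, the lowest without the second Arid1a knockdown library. The Erbb3 window's EGF difference of 266.75 bp ranged from -61.75 bp, without the first control library, to 528.25 bp. Other differences near 0 that changed sign were the mean EGF difference of Erbb3 region 1 (-0.064 to 0.097 without single libraries, with -0.064 and -0.03 without the first control and second Arid1a knockdown library) and of Egfr region 16 (0.18 after quantile normalization, -0.19 to 0.12 without single libraries, with 0.08, 0.02 and 0.12 without the second EGF, second Arid1a knockdown and first Arid1a knockdown with EGF library), and the mean knockdown difference of Egfr region 1 (-0.24 to 0.050 without single libraries, with 0.03 and 0.050 without the first control and first Arid1a knockdown library). With 2 libraries in every group the block cannot change a window's mean difference. The cause of these changes was not tested. Peak lists hold no signal below the caller's limit, so a difference at a weak peak such as Egfr region 15 cannot be sized.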
